A study of Mus musculus with 2 samples.

Results

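The 10 genes Acta2, Tagln, Myh11, Mylk, Cnn1, Tpm1, Tpm2, Myl9, Pdlim3 and Synpo2 encode parts of the contractile apparatus of smooth muscle cells. Myofibroblasts share a part of it. The 10 genes were chosen by name among the 31054 genes counted, and all 10 were found in the count tables of both libraries. Both libraries came from gonadal white adipose tissue (gWAT) of male mice aged 18 months and of 1 genotype, p16-CreERT2/R26-LSL-tdTomato, in which tamoxifen lets cells with an active p16 promoter switch on the red reporter tdTomato permanently. Cells without the endothelial antigen CD31 and the leukocyte antigen CD45, labelled as adipocyte progenitor and mesothelial cells, were sorted into Tom+ and Tom- cells, and 1 droplet library was made from each. The Tom- cells share genotype, age, tamoxifen and tissue with the Tom+ cells, and the reporter marks p16 promoter activity rather than a cell type. How many mice gave each library was not given in the sources used here.

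Each cell was placed in a class by its unique molecular identifiers (UMIs, 1 for each RNA molecule captured) of Msln, Upk3b, Krt19, Lrrn4 and Upk1b, which mark mesothelium, the epithelial sheet that covers visceral fat. Cells with at least 10 of these UMIs are called mesothelial and cells with fewer than 5 stromal. Among cells with over 1000 and under 7000 genes and under 8% mitochondrial UMIs, the Tom+ library held 3263 stromal and 250 mesothelial cells and the Tom- library 4800 and 1887, and 11 and 30 cells lay between. Of 10 other mesothelial markers, 10 in the Tom+ and 9 in the Tom- library were at least 2-fold higher in the mesothelial class, and of 7 adipocyte progenitor markers 5 and 5 were at least 2-fold lower there. The stromal class also held 179 Tom+ and 99 Tom- cells with at least 10 UMIs of immune markers, against the CD45 sort, and 88 and 38 cells with at least 5 UMIs of mural (pericyte and vascular smooth muscle) markers. Stromal cells gave 51104409 and 57883866 UMIs (median 14235 and 11270 per cell) and mesothelial cells 5322983 and 32355904 (median 18601.5 and 14753). The libraries share 2224 cell barcodes, of which 9 passed the filters in both. Among the cells used, 404 Tom+ and 75 Tom- stromal and 100 and 207 mesothelial cells carry a shared barcode. The differences between classes and libraries are therefore also given without them, for some of the members. Levels are CPM, UMIs of a gene per 1000000 UMIs of a class. With 1 library per condition no test was made, and 95% intervals cover counting error only. They are exact Poisson for levels, exact Clopper-Pearson for ratios and shares, and approximate (Wald) for differences between ratios.

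In contractile cells myosin filaments pull on actin filaments, and force is switched on when myosin light chain kinase phosphorylates the regulatory light chain of myosin. Tropomyosins, calponin and transgelin bind along actin filaments, and PDZ-LIM and synaptopodin family proteins tie filaments to α-actinin. Fibroblasts that take up parts of this program are called myofibroblasts, and smooth muscle α-actin (Acta2) is their usual marker. Many of these genes are targets of serum response factor, which binds a 10-base element called the CArG box, CC and GG around 6 bases that are each A or T.

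Promoter windows of 300 bases (250 before to 50 after the start in RefSeq, GRCm38.p6) were found for 8 members, and Tagln and Myh11 had no entry. The 3 windows with a CArG box, or with a match in which 1 of the 6 middle bases is not A or T, are shown because it is the element best known in promoters of this program. Capitals mark the matches, and the strand printed is that of the gene.

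Acta2, chr19:34255324-34255623, minus strand: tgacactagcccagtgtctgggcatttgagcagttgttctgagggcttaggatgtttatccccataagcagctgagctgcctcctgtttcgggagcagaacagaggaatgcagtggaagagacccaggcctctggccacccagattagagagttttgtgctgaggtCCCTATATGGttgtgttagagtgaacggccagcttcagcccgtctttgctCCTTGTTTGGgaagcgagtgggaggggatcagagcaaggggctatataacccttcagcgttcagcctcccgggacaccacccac

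Myl9, chr2:156775214-156775513, plus strand: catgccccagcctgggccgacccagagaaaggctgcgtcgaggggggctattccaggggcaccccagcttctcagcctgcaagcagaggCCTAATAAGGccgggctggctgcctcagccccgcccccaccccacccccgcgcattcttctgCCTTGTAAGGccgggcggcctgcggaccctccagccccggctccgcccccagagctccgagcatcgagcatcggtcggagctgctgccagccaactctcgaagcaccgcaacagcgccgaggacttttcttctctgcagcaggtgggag

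Pdlim3, chr8:45885237-45885536, plus strand: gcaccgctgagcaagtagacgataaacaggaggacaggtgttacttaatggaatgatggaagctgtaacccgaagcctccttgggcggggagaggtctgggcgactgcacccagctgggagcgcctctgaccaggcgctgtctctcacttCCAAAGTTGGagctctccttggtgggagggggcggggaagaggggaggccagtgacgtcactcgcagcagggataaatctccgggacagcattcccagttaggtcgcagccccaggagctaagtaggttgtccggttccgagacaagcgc

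Myl9 holds 1 exact match and 1 with a changed middle base, Acta2 holds 2 of the latter kind and Pdlim3 holds 1. The pattern is its own reverse complement, so both strands were searched, and no match overlaps another. Of all 32851 windows of this length, 1.63% hold an exact match and 9.98% hold either kind. Mylk, Cnn1, Tpm1, Tpm2 and Synpo2 had no match, which says only that these letters are not in those windows. The start used for the Mylk window lies inside the gene, 39740 bases from the gene start of the coordinates given below. The other starts lie at most 217 bases from theirs. The 3 genes did not share a pattern of levels: Acta2 was far higher in mesothelial cells, Myl9 was at like levels in both classes, and Pdlim3 differed in direction between the libraries.

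Mesothelial and stromal cells carried different parts of the contractile set. In both libraries Acta2, Tagln, Tpm1 and Tpm2, an actin and its filament-lining partners, were at least 2-fold higher in mesothelial cells, and Myh11 and Mylk, the smooth muscle myosin heavy chain and the kinase that activates myosin, were at least 2-fold lower. Myl9 and Synpo2 differed by less than 2-fold. In the Tom+ library 13.1% of the 10240 genes that averaged 5 CPM or more were at least 2-fold higher and 10.1% at least 2-fold lower in mesothelial cells, beside 4 and 3 of the 9 members that passed this minimum. In the Tom- library the shares were 11.9% and 9.22% of 10019 genes, beside 5 and 2 of 10 members. The median log2 ratio was 0.27 over the 9 members and 0.11 over all genes in the Tom+ library, and 1.04 and 0.14 in the Tom- library. Median-of-ratios size factors would lower every mesothelial over stromal ratio by 0.18 in the Tom+ and 0.15 in the Tom- library, which changes the sign of the Tom+ Myl9 ratio alone.

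Acta2 (ENSMUSG00000035783, chromosome 19, 34241090 to 34255590, GRCm38) encodes smooth muscle α-actin. Its level was 15.9 CPM (14.8 to 17.00) in Tom+ stromal cells, 34.97 CPM (33.5 to 36.5) in Tom- stromal cells, 354 CPM (338 to 370.5) in Tom+ mesothelial cells and 416 CPM (409 to 423) in Tom- mesothelial cells. The mesothelial level was 22.3-fold and 11.9-fold the stromal level, log2 ratios of 4.48 (4.36 to 4.60) and 3.57 (3.51 to 3.64) at percentiles 97.9 and 97.2 of all genes. With every cell thinned to 7461 UMIs, an Acta2 UMI was found in 60.7% (54.3 to 66.9) of Tom+ and 64.3% (62.1 to 66.5) of Tom- mesothelial cells and in 3.83% (3.18 to 4.59) and 7.98% (7.18 to 8.85) of stromal cells. The immune-marker cells gave 1.80% (0.372 to 5.16) and 5.13% (1.41 to 12.6) (median 35612 and 20468 UMIs before thinning). Of the 179 Tom+ and 99 Tom- immune-marker cells, 122 and 24 carry a shared barcode, and their values without these were not computed. The mesothelial shares lie far above the immune-marker shares, while the intervals of the stromal and the immune-marker shares overlap in each library. In CPM the immune-marker cells were at 9.20 (6.95 to 11.95) and 5.64 (3.08 to 9.46), below the stromal interval in each library. Of the 56 Acta2 UMIs in Tom+ immune-marker cells 1 cell held 38. Immune cells are not known for contractile RNA. A Mylk UMI was found in 18.6% (12.97 to 25.3) and 19.2% (11.2 to 29.7) of the immune-marker cells, against 3.24% (1.41 to 6.28) and 7.65% (6.46 to 8.98) of mesothelial cells. Whether the contractile UMIs of immune-marker cells are free RNA was not tested. The shares and levels of these cells are therefore given for comparison and not subtracted.

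Tagln (ENSMUSG00000032085, chromosome 9, 45929619 to 45936058) encodes transgelin, an actin-binding protein of smooth muscle. Its level was 21.5 CPM (20.2 to 22.8) for Tom+ stromal cells, 55.4 CPM (53.5 to 57.3) for Tom- stromal cells, and 107 CPM (98.8 to 117) and 158 CPM (153 to 162) in mesothelial cells. The mesothelial over stromal log2 ratio was 2.32 (2.18 to 2.47) in the Tom+ and 1.51 (1.44 to 1.57) in the Tom- library. Thinned shares of cells with a UMI were 4.43% (3.73 to 5.23) and 8.77% (7.93 to 9.67) in stromal and 2.99% (0.979 to 6.85) and 8.97% (3.68 to 17.6) in immune-marker cells, with overlapping intervals in each library. In CPM the immune-marker cells were at 25.1 (21.3 to 29.5) and 25.4 (19.5 to 32.4), overlapping the stromal interval in the Tom+ library and below it in the Tom- library. Of the 153 Tagln UMIs in Tom+ immune-marker cells 1 cell held 140. Tagln overlaps Pcsk7 and Gm48529 on the other strand, and Mylk 3 antisense genes; whether counting used the strand is not given in the sources used here.

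The tropomyosins line actin filaments and were higher in mesothelial cells as well. Tpm1 (ENSMUSG00000032366, chromosome 9, 67022590 to 67049406) was the most abundant of the 10 genes in each class, with 109.6 CPM (107 to 113) for Tom+ stromal cells, 111 CPM (108 to 113) for Tom- stromal cells and 476 CPM (457 to 495) and 479 CPM (472 to 487) in mesothelial cells. Its mesothelial over stromal log2 ratio was 2.12 (2.05 to 2.19) in the Tom+ and 2.12 (2.07 to 2.16) in the Tom- library. Levels can be compared between genes without division by length because the method counts only the 3′ end of each molecule.

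Tpm2 (ENSMUSG00000028464, chromosome 4, 43514711 to 43523765) gave 10.9 CPM (10.1 to 11.9) in Tom+ stromal cells, 27.8 CPM (26.5 to 29.2) in Tom- stromal cells, and 167 CPM (156 to 179) and 170.1 CPM (166 to 175) in mesothelial cells. Its log2 ratios were 3.93 (3.78 to 4.09) and 2.61 (2.53 to 2.69). For both tropomyosins the mesothelial intervals of the libraries overlap, and the stromal intervals overlap for Tpm1 but not for Tpm2.

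Cnn1 (ENSMUSG00000001349, chromosome 9, 22099216 to 22109630), calponin 1, was the rarest member in stromal cells, with 0.509 CPM (0.332 to 0.745) from 26 UMIs and 1.55 CPM (1.25 to 1.91) from 90 UMIs. In mesothelial cells it was at 4.88 CPM (3.19 to 7.16) and 11.3 CPM (10.2 to 12.5). The log2 ratio was 2.86 (2.52 to 3.21) in the Tom- library, and 3.26 (2.42 to 4.11) in the Tom+ library, where the mean was below 5 CPM and 1 mesothelial cell held 14 of 26 UMIs.

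Myosin and its kinase went the other way. Myh11 (ENSMUSG00000018830, chromosome 16, 14194535 to 14291372) reached 41.4 CPM (39.7 to 43.2) in Tom+ stromal cells, 23.9 CPM (22.6 to 25.2) in Tom- stromal cells, and 1.88 CPM (0.901 to 3.45) and 2.01 CPM (1.55 to 2.56) in mesothelial cells, from 10 and 65 UMIs. It was 22.04-fold and 11.9-fold lower in mesothelial cells, log2 ratios of -4.46 (-5.52 to -3.58) and -3.57 (-3.95 to -3.21). After thinning, the share of stromal cells with a Myh11 UMI was 17.7% (16.3 to 19.1) in the Tom+ and 10.2% (9.26 to 11.1) in the Tom- library, against 4.19% (1.70 to 8.45) and 5.13% (1.41 to 12.6) of immune-marker cells. Mesothelial cells gave 0.405% (0.0102 to 2.23) and 1.45% (0.9504 to 2.12). The Tom+ stromal share lies above both beyond counting error, and the Tom- stromal share above the mesothelial one only. In CPM the immune-marker cells were at 6.25 (4.42 to 8.57) and 3.62 (1.66 to 6.88), below the stromal interval in each library.

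Mylk (ENSMUSG00000022836, chromosome 16, 34745210 to 35002420), the kinase, reached 86.02 CPM (83.5 to 88.6) in Tom+ stromal cells, 95.3 CPM (92.8 to 97.8) in Tom- stromal cells, and 7.51 CPM (5.37 to 10.2) and 15.6 CPM (14.3 to 17.03) in mesothelial cells, 11.4-fold and 6.10-fold lower. Myl9 (ENSMUSG00000067818, chromosome 2, 156775420 to 156781658), the regulatory light chain that Mylk phosphorylates, gave 32.2 CPM (30.7 to 33.8) in Tom+ stromal cells, 44.9 CPM (43.2 to 46.6) in Tom- stromal cells, and 32.3 CPM (27.7 to 37.5) and 40.98 CPM (38.8 to 43.2) in mesothelial cells. The kinase was thus far lower in mesothelial cells while its substrate had log2 ratios of 0.0047 (-0.23 to 0.23) and -0.13 (-0.23 to -0.035).

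Synpo2 (ENSMUSG00000050315, chromosome 3, 123076519 to 123236149), which binds actin and α-actinin, gave 18.7 CPM (17.6 to 19.97) in Tom+ stromal cells, 23.9 CPM (22.7 to 25.2) in Tom- stromal cells, and 22.5 CPM (18.7 to 26.96) and 19.2 CPM (17.7 to 20.8) in mesothelial cells. Its ratios were small and of opposite sign, 0.27 (-0.020 to 0.54) in the Tom+ and -0.32 (-0.45 to -0.18) in the Tom- library. Pdlim3 (ENSMUSG00000031636, chromosome 8, 45885461 to 45919548), a PDZ-LIM protein that binds α-actinin, reached 38.6 CPM (36.9 to 40.3) in Tom+ stromal cells, 26.4 CPM (25.1 to 27.8) in Tom- stromal cells, and 15.97 CPM (12.8 to 19.7) and 39.1 CPM (37.00 to 41.3) in mesothelial cells. Mesothelial cells were thus lower in the Tom+ library, with a log2 ratio of -1.27 (-1.60 to -0.96), and higher in the Tom- library, with 0.57 (0.46 to 0.68). Under a mitochondrial share below 5% the Tom+ ratio was -0.92.

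**Figure D1:**
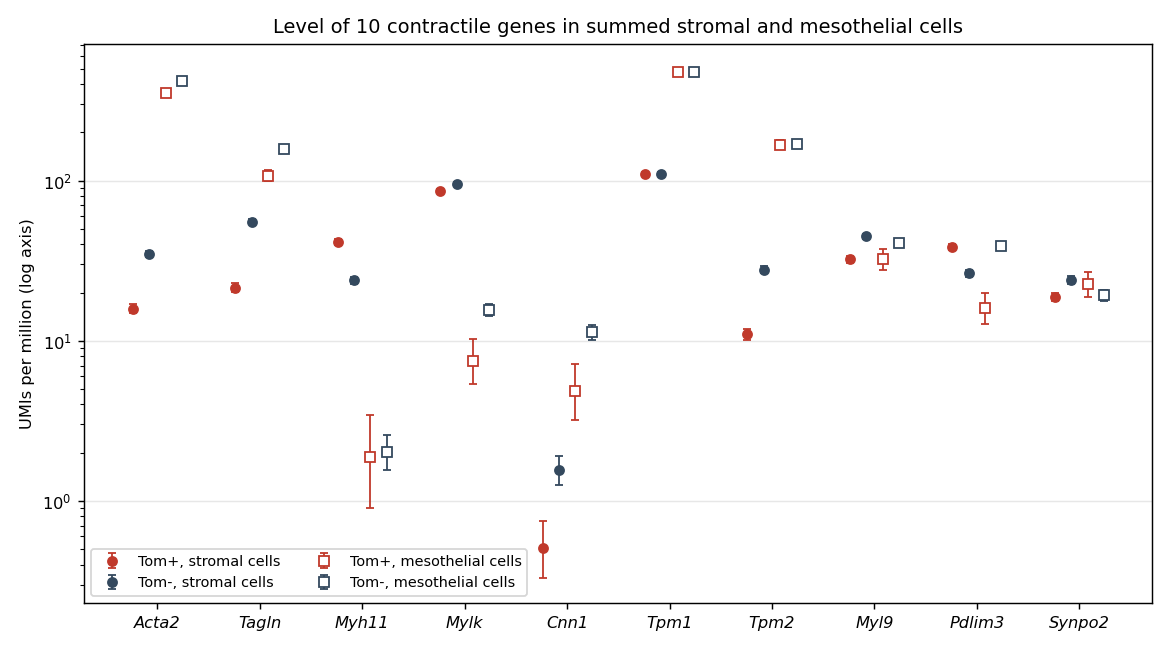
Level of each of the 10 genes in CPM (log axis) in summed stromal cells (filled circles) and mesothelial cells (open squares) of the Tom+ (red) and Tom- (dark) libraries, with exact Poisson 95% intervals. Acta2, Tagln, Cnn1, Tpm1 and Tpm2 sit higher in mesothelial cells and Myh11 and Mylk in stromal cells, while Myl9 and Synpo2 are at like levels in both.

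In order of level, Tom+ stromal cells had Tpm1, Mylk, Myh11, Pdlim3, Myl9, Tagln, Synpo2, Acta2, Tpm2 and Cnn1, and the intervals of Myh11 and Pdlim3 overlap. In Tom- stromal cells the order was Tpm1, Mylk, Tagln, Myl9, Acta2, Tpm2, Pdlim3, Synpo2, Myh11 and Cnn1, where each neighbouring pair from Tpm2 to Myh11 overlaps. Acta2 was thus among the least abundant members in stromal cells of the Tom+ library. In mesothelial cells of both libraries Tpm1, Acta2, Tpm2 and Tagln led and Myh11 came last.

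Without the shared barcodes the members past 2-fold were the same. The mesothelial over stromal log2 ratios in the Tom+ and Tom- libraries were then 4.95 and 3.59 for Acta2, 2.36 and 1.61 for Tagln, 4.25 and 2.68 for Tpm2, -5.59 and -3.50 for Myh11, -4.17 and -2.67 for Mylk, and -1.06 and 0.49 for Pdlim3.

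Between the sorted libraries, stromal cells of the Tom+ library had less Acta2, Tagln and Tpm2 RNA and more Myh11 and Pdlim3 RNA than those of the Tom- library. The log2 ratio of Tom+ over Tom- was -1.37 (-1.47 to -1.27) for Tagln, -1.35 (-1.49 to -1.21) for Tpm2 and -1.14 (-1.26 to -1.02) for Acta2, that is 2.58-, 2.54- and 2.20-fold lower. These 3 of 9 members were at least 2-fold lower, beside 0.982% of 9778 genes. No member was at least 2-fold higher, beside 0.869% of genes. Myh11 had the highest ratio of the members, 0.79 (0.70 to 0.89) at percentile 98.4, followed by Pdlim3 with 0.55 (0.45 to 0.65) at percentile 95.3. Both, and no other member, reached a log2 ratio of 0.5, as did 6.39% of genes. The myosin heavy chain and the actin thus differed between the libraries in opposite directions.

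The remaining members above the minimum differed less. Myl9 was at -0.48 (-0.57 to -0.39), Synpo2 at -0.35 (-0.47 to -0.23), Mylk at -0.15 (-0.20 to -0.090) and Tpm1 at -0.013 (-0.065 to 0.039). Cnn1, below the minimum, was at -1.61 (-2.30 to -0.97). The median over the 9 members was -0.35, against 0.071 over all genes. Reporter status and the preparation of each library cannot be told apart.

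Other cell types' markers moved with this difference, and their part in it was not tested. The 5 mesothelial markers summed to 6.63 CPM in Tom+ and 27.3 CPM in Tom- stromal cells. In stromal cells with none of these UMIs (2951 and 3519 cells), Acta2 was at 12.8 and 32.4 CPM, Tagln at 17.4 and 52.3 CPM and Tpm2 at 11.05 and 26.04 CPM, again more than 2-fold apart for each. In cells with 1 such UMI (290 and 1041 cells) this held for Tpm2, at 9.83 and 30.6 CPM, but not for Acta2 or Tagln. There Acta2 was higher in the Tom+ library, at 42.01 (36.6 to 47.97) against 33.7 CPM (30.6 to 36.9). Of the 17 Tom+ stromal cells with at least 10 Acta2 UMIs, 5 were among these cells. Tagln was at 58.6 and 57.6 CPM there. With 2 to 4 such UMIs (22 and 240 cells) Acta2 was at 28.1 (14.02 to 50.2) and 72.4 CPM (63.4 to 82.2). Tagln was then at 2.55 (0.065 to 14.2, 1 UMI) and 84.0 CPM, and Tpm2 at 12.8 (4.14 to 29.8, 5 UMIs) and 39.1 CPM. The 10 mural markers summed to 44.2 and 32.4 CPM, with Rgs5 at 1.29 and 0.605 CPM (53 of its 66 Tom+ UMIs in 1 cell), Cspg4 at 1.82 and 1.61 CPM, and Trpc6 at 0 in Tom+ cells. The 2 mural genes above the minimum had log2 ratios of 0.79 (0.66 to 0.93) for Notch3 and -0.69 (-0.89 to -0.49) for Ndufa4l2. The 9 immune markers summed to 1785 and 964 CPM. Without stromal cells that hold markers of other cell types the ratios were -1.23 for Acta2, -1.54 for Tagln, -1.33 for Tpm2 and 0.91 for Myh11. Without the shared barcodes they were -1.46, -1.76, -1.39 and 0.85. With a mitochondrial share under 5% Acta2 was at -0.92, short of 2-fold.

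In mesothelial cells other members differed between the libraries. Pdlim3 was 2.45-fold lower in the Tom+ library, with a log2 ratio of -1.29 (-1.63 to -0.98), Cnn1 2.31-fold lower with -1.21 (-1.84 to -0.63) and Mylk 2.08-fold lower with -1.05 (-1.56 to -0.59). These 3 of 9 members were at least 2-fold lower, beside 0.34% of 10014 genes, and none was at least 2-fold higher, beside 0.689%. The Tom+ side rests on 85 UMIs of Pdlim3, 26 of Cnn1 and 40 of Mylk in 250 cells. Without Scrublet doublets, which marked 2 Tom+ and 104 Tom- mesothelial cells, Mylk was at -0.88, short of 2-fold, as were Mylk (-0.98) and Pdlim3 (-0.96) with cells weighted equally. Scrublet set its score threshold for each library, at 0.486 in Tom+ and 0.307 in Tom-. Leaving out its doublets thus filtered the 2 libraries unequally. Some markers of other cell types differed as well, and their part was not tested. Of 7 progenitor markers 6 were below 0, with a median of -0.17 against 0.032 over all genes. The share of all genes below 0 is not given here. Lum alone of the 7 passed 2-fold, at -1.03 (-1.23 to -0.84). The 9 immune markers summed to 56.7 CPM in Tom+ and 23.3 CPM in Tom- cells.

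Tagln was at -0.55 (-0.68 to -0.43), Myl9 at -0.34 (-0.58 to -0.11) and Acta2 at -0.23 (-0.30 to -0.16) in the same comparison. Tpm1 was at -0.011 (-0.073 to 0.049), Tpm2 at -0.025 (-0.13 to 0.078) and Synpo2 at 0.23 (-0.064 to 0.51), with intervals that include 0. The median over the 9 members was -0.34, against 0.032 over all genes. Without the shared barcodes Pdlim3 was at -0.94, Tagln at -1.01, Mylk at -1.60 and Cnn1 at -2.42, so Pdlim3 no longer passed 2-fold and Tagln did. Myl9 was then at 0.0013, so its difference was gone, and Tpm2 (0.18) and Tpm1 (0.041) also changed sign. Without the 2 Tom+ and 19 Tom- mesothelial cells with most of its UMIs, a choice made after seeing the data, Pdlim3 was at -0.82.

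The stromal ratio minus the mesothelial ratio was -1.32 (-1.49 to -1.15) for Tpm2, -0.91 (-1.04 to -0.77) for Acta2 and -0.81 (-0.97 to -0.66) for Tagln, which were thus lower in the Tom+ library by more in stromal than in mesothelial cells. It was 0.91 (0.44 to 1.38) for Mylk and 1.84 (1.51 to 2.17) for Pdlim3, which went the other way. For Synpo2 it was -0.58 (-0.89 to -0.28) and for Tpm1 -0.0016 (-0.081 to 0.078).

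**Figure D2:**
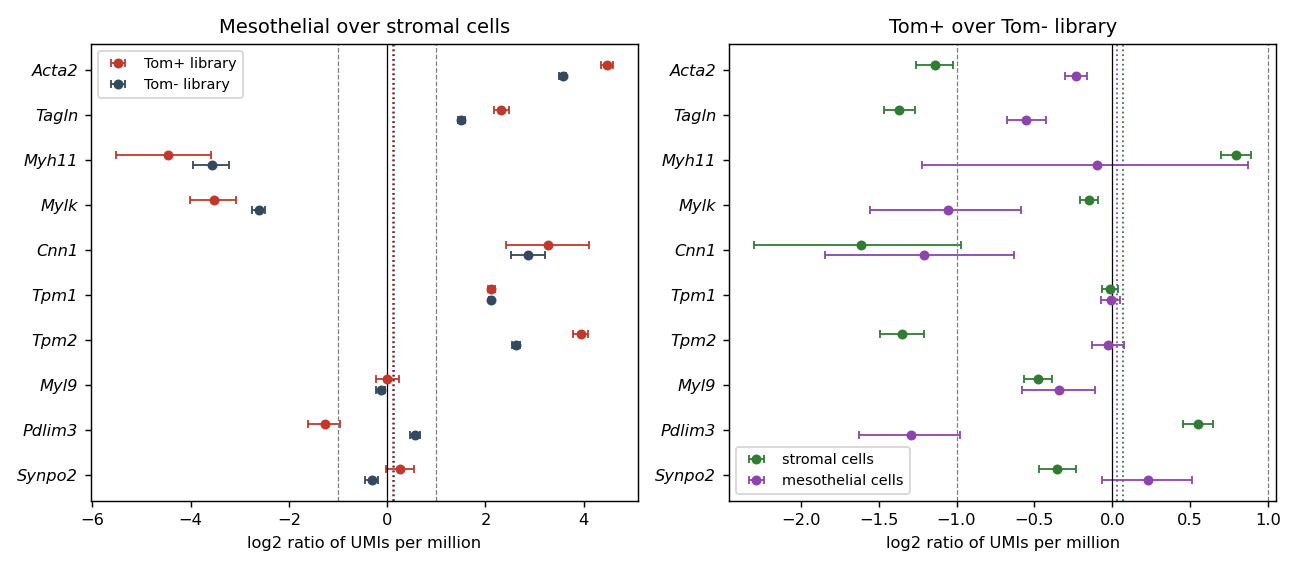
Log2 ratio of CPM for each of the 10 genes with exact 95% counting intervals, mesothelial over stromal cells within each library (left) and Tom+ over Tom- within each class (right). Dashed lines mark 2-fold and dotted lines the median of all genes, and Acta2, Tagln and Tpm2 pass 2-fold on the right in stromal cells while Pdlim3, Cnn1 and Mylk do so in mesothelial cells (stromal Cnn1 is under the minimum of 5 CPM).

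The stromal level of Acta2 and Tagln came from few cells. The 1% of stromal cells with most Acta2 UMIs, 33 Tom+ and 48 Tom- cells, held 72.01% and 55.1% of all stromal Acta2 UMIs while holding 1.38% and 1.15% of the UMIs of all genes. For Tagln the top 1% held 74.7% and 55.2%. The other genes were spread more evenly, with 28.7% and 33.7% for Pdlim3, 29.2% and 17.8% for Tpm2, 17.9% and 28.8% for Myh11, 20.04% and 19.9% for Synpo2, 15.7% and 13.2% for Myl9, 14.04% and 13.9% for Mylk and 9.43% and 11.8% for Tpm1. Cnn1 is the exception, since under 1% of stromal cells held any of its UMIs.

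In thinned stromal cells the variance over mean of Acta2 was 18.8 in the Tom+ and 16.95 in the Tom- library, against a median of 1.08 and 1.07 over all genes. It was 2.33 and 2.59 for Myh11 and 1.81 and 2.47 for Tpm1. In mesothelial cells the top 1% of cells held a smaller part of the Acta2 UMIs, 6.58% and 13.00%. Its variance over mean there was 5.54 and 9.22, against a median of 1.06 and 1.05, at percentiles 98.9 and 99.5. Acta2 was thus still spread more unevenly than most genes. Without the top 1% of stromal cells, chosen after seeing the data, the Tom+ over Tom- ratios were -1.82 for Acta2, -2.19 for Tagln and 1.0 for Myh11. The cells left out were chosen by the value compared. For Tagln they include all 19 Tom+ cells with at least 10 of its UMIs but only 48 of 76 Tom- cells, so these ratios do not show how the rest of the stromal cells differed.

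**Figure D3:**
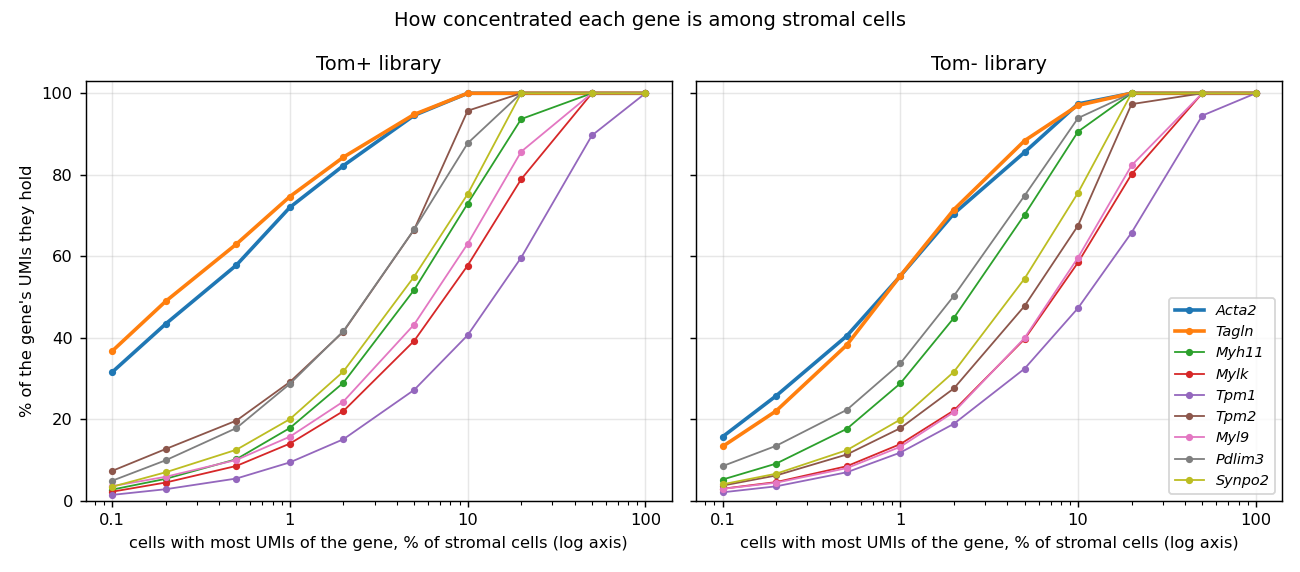
Share of a gene's UMIs (percent) held by the stromal cells with most of it, as a percent of all stromal cells (log axis), for 9 of the 10 genes in the Tom+ (left) and Tom- (right) libraries; Cnn1, with 26 and 90 stromal UMIs, is left out. The thick Acta2 and Tagln curves rise first, to 72.01% and 74.7% at 1% of Tom+ cells and 55.1% and 55.2% at 1% of Tom- cells, and the Tpm1 curve last.

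At least 10 UMIs of Acta2 or Tagln were found in 28 Tom+ and 95 Tom- stromal cells, 0.858% and 1.98% of the class. These cells were chosen by their values, so what follows only describes them. A UMI of the progenitor receptor Pdgfra was present in 24 and 64 of them, against 2988 of 3235 and 4124 of 4705 other stromal cells. Dcn (decorin, a matrix protein of fibroblasts) was at 10879.8 and 14313 CPM, against 18588 and 22491 CPM. Of mural markers, a UMI of Rgs5, the usual pericyte marker, was present in 1 of the 28 Tom+ and 1 of the 95 Tom- cells. It was present in 12 of 3235 and 24 of 4705 other stromal cells. Notch3 was at 91.1 and 33.7 CPM against 22.1 and 12.7 CPM. At least 5 mural UMIs were held by 5 of 28 and 5 of 95 cells, against 83 of 3235 and 33 of 4705 other stromal cells. The share with mural UMIs was thus higher among these cells in both libraries. No UMI of the 5 mesothelial markers was found in 21 and 62 of the cells, against 2930 of 3235 and 3457 of 4705 other stromal cells. The cells were thus less often free of these markers than the others in both libraries. Tpm1 was at 496 and 515 CPM in them, against 105 and 100.4 CPM in the other stromal cells. Myh11 was at 112 and 28.8 CPM, against 40.6 and 23.8 CPM.

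Outside the 10 members, the genes whose counts followed Acta2, Tagln and Tpm2 most closely across stromal cells were the same 3: Ltbp2, a microfibril-associated protein, the cell adhesion molecule Ncam1, and Clu, a secreted chaperone. For Acta2 the Pearson r across the 3263 Tom+ and 4800 Tom- cells was 0.37 and 0.44 with Ltbp2, 0.31 and 0.50 with Ncam1 and 0.28 and 0.46 with Clu, ranked by the lower of the 2 values among 9769 genes. These values are descriptions, and cells of 1 library share its depth and preparation. Ncam1 was then used for a split, chosen after seeing the data. Stromal cells with an Ncam1 UMI numbered 62 Tom+ and 221 Tom-, 1.90% and 4.60% of the class.

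These cells held 36.1% and 60.1% of the stromal Acta2 UMIs, 48.1% and 48.4% of the Tagln UMIs and 13.1% and 18.2% of the Tpm2 UMIs. Their part of the Myh11 UMIs was 2.98% and 6.30% and of the Mylk UMIs 2.48% and 4.86%, near their part of all UMIs, 1.97% and 4.77%. Without them the Tom+ over Tom- ratio of Acta2 was -0.50, short of 2-fold, while that of Tagln was -1.40 and that of Tpm2 -1.30. Because Ncam1 was picked by its r with these genes in the same cells, their high levels in Ncam1 cells follow from the choice. Leaving the cells out removed a larger part of the Acta2 UMIs in the Tom- library, so the split adds nothing separate for these genes. Split by a thinned Ncam1 UMI, 38 Tom+ and 130 Tom- cells had Acta2 at 250.4 and 542 CPM against 12.1 and 14.9 CPM in the rest. Myh11 was at 49.4 and 34.02 against 41.6 and 24.3 CPM, with intervals of the ratio that include 0.

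Other members had other neighbours, again with the 10 members left out of the ranking. Myh11 was nearest to Pi15 (0.38 and 0.34), Col4a5 and Col4a6, the last 2 encoding collagen IV chains of basement membrane. Mylk was nearest to Agt (0.41 and 0.39), the angiotensin precursor, the growth factor Igf1 and the iron carrier Trf. Pdlim3 was nearest to Mfap4 (0.39 and 0.34), a microfibril-associated protein, Cpz and Gas6. Tpm1 was nearest to Ltbp2 (0.20 and 0.30), Cald1 and Actn1, the last 2 being actin-binding proteins. The values were low for Myl9 (Cd81, 0.20 and 0.18), Synpo2 (Thbs1, 0.20 and 0.17) and Cnn1 (Clu, 0.10 and 0.094). In mesothelial cells the gene outside the set nearest to Acta2 was Dstn (0.27 and 0.28), an actin-depolymerising protein, and that nearest to Pdlim3 was Myh10 (0.30 and 0.35), a nonmuscle myosin.

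Among the members themselves Acta2 and Tagln had the highest r in stromal cells, 0.50 and 0.52 in the Tom+ and Tom- libraries, and Acta2 with Tpm1 reached 0.21 and 0.34. Myh11, Mylk and Pdlim3 formed another group, with 0.29 and 0.16 for Myh11 with Mylk, 0.32 and 0.20 for Myh11 with Pdlim3 and 0.25 and 0.17 for Mylk with Pdlim3. Between the groups values were low, as with 0.091 and 0.055 for Acta2 with Myh11. In mesothelial cells Acta2 with Tagln had 0.37 and 0.40, Acta2 with Tpm1 0.39 and 0.32, Acta2 with Myl9 0.31 and 0.35 and Mylk with Pdlim3 0.28 and 0.38.

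**Figure D4:**
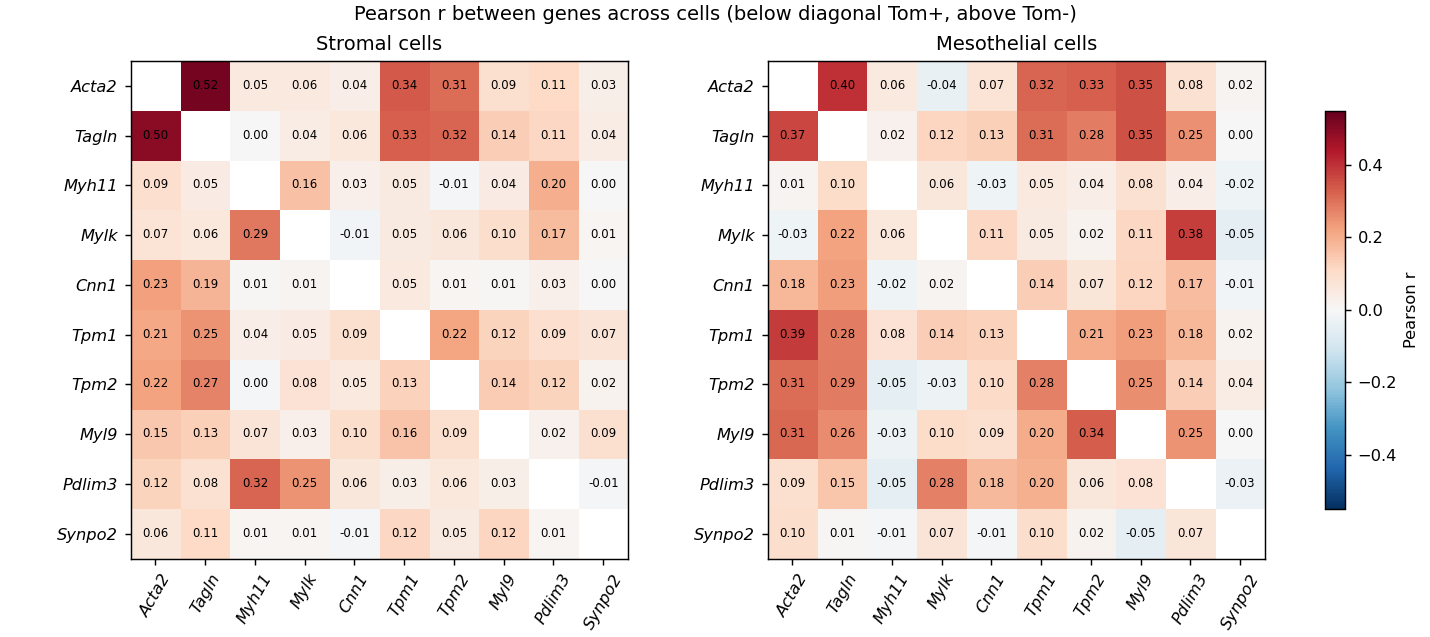
Pearson r between the 10 genes across stromal cells (left) and mesothelial cells (right), each square below the diagonal from the Tom+ and above it from the Tom- library. The darkest stromal squares are Acta2 with Tagln (0.50 and 0.52), and a separate patch joins Myh11, Mylk and Pdlim3.

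Within each library, stromal cells were also split by a thinned UMI of a marker that the classes did not use, so that both sides come from 1 preparation. Cells with a UMI of Dpp4, a marker of interstitial progenitors of fat, had less Myh11, Mylk, Acta2 and Pdlim3. The log2 ratio of cells with over cells without was -2.37 (-2.78 to -1.99) in the Tom+ and -2.58 (-3.17 to -2.04) in the Tom- library for Myh11. For Mylk it was -1.70 (-1.93 to -1.48) and -1.77 (-1.99 to -1.55), and for Acta2 -2.24 (-2.92 to -1.63) and -1.65 (-2.03 to -1.29). Pdlim3 had -2.54 (-2.97 to -2.13) and -0.99 (-1.34 to -0.66). Tpm1 differed little, with -0.054 (-0.19 to 0.079) and -0.19 (-0.33 to -0.062).

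Cells with a UMI of Pi15, a secreted protein, made up 961 of 2999 thinned Tom+ and 812 of 4172 thinned Tom- stromal cells and carried another combination of members than the Ncam1 cells. They had more Myh11, with 1.79 (1.60 to 1.99) and 2.0 (1.79 to 2.21), and more Pdlim3, with 1.94 (1.74 to 2.14) and 1.33 (1.12 to 1.55). They had less Acta2, with -0.83 (-1.23 to -0.45) and -1.43 (-1.78 to -1.10), and less Tagln, with -1.02 (-1.39 to -0.66) and -1.30 (-1.58 to -1.04). Pi15 is also the gene nearest to Myh11, and Pdlim3 went with Myh11 across the same cells, with r of 0.32 and 0.20. The split therefore adds nothing separate for Myh11 or Pdlim3.

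Cells with a UMI of Pparg, the master regulator of adipogenesis, had less Acta2, with -1.32 (-2.07 to -0.65) and -1.79 (-2.26 to -1.35), less Tagln, with -0.72 (-1.28 to -0.22) and -2.21 (-2.66 to -1.80), and less Pdlim3, with -0.90 (-1.28 to -0.54) and -0.96 (-1.36 to -0.58). They had more Mylk, with 0.43 (0.25 to 0.60) and 0.45 (0.31 to 0.58), and more Synpo2, with 1.33 (1.0 to 1.64) and 0.35 (0.063 to 0.62). The kinase and the actin were thus split in opposite directions by this marker, and the Myh11 intervals included 0 in both libraries.

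In CPM, the reporter transcript split Tom+ stromal cells in the opposite direction to the libraries for Acta2, Tagln and Tpm2. In the 602 thinned Tom+ stromal cells with a tdTomato UMI, Tagln was at 41.4 CPM against 12.7 CPM in the 2397 without, a log2 ratio of 1.71 (1.42 to 1.99). Acta2 was at 26.3 against 12.4 CPM, a ratio of 1.09 (0.75 to 1.42), and Tpm2 had a ratio of 0.70 (0.28 to 1.10). Myh11 had -0.29 (-0.54 to -0.040). The shares of cells with a UMI were less clear, with overlapping intervals for Acta2, Tagln and Tpm2. For Tagln they were 5.98% (4.22 to 8.18) with and 4.05% (3.29 to 4.91) without a tdTomato UMI. The sides differed in cell type, since 138 of the 167 thinned Tom+ immune-marker cells had a tdTomato UMI. Without the immune-marker cells, a choice made after seeing the data, 464 cells with and 2368 without a tdTomato UMI gave 1.92 (1.62 to 2.21) for Tagln, 1.42 (1.08 to 1.76) for Acta2, 0.98 (0.55 to 1.39) for Tpm2 and -0.0044 (-0.27 to 0.25) for Myh11, so the first 3 remained higher and the Myh11 interval included 0. The intervals of the shares then lay apart for Acta2 (6.47% with and 3.46% without) and for Tpm2, and still overlapped for Tagln. The 28 Tom+ cells with at least 10 UMIs of Acta2 or Tagln hold much of the levels of these genes. Of these cells 19 had a tdTomato UMI, as did 915 of the 3235 other stromal cells.

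In the Tom- library, where tdTomato was at 13.1 CPM in stromal cells against 211 CPM in the Tom+ library, the same split gave -0.14 (-0.43 to 0.13) for Tagln, 0.081 (-0.25 to 0.39) for Acta2 and -0.19 (-0.58 to 0.18) for Tpm2. These intervals all include 0, as do those of Mylk, Myl9 and Cnn1. The intervals of the other members lie above 0. Myh11 was at 0.49 (0.16 to 0.81), against -0.29 in the Tom+ library. Synpo2 was at 0.45 (0.11 to 0.77), Pdlim3 at 0.40 (0.058 to 0.72) and Tpm1 at 0.27 (0.10 to 0.43). In Tom+ mesothelial cells, a split chosen after seeing the data, Tagln was lower in the 173 cells with a tdTomato UMI, at 72.8 CPM against 205 CPM in 74 without, a ratio of -1.49 (-1.90 to -1.08), while Acta2 had 0.26 (0.014 to 0.52). The share of cells with a Tagln UMI was 25.4% (19.1 to 32.6) and 27.03% (17.4 to 38.6), with intervals that overlap, and 2 cells held 22.7% of all Tom+ mesothelial Tagln UMIs. The same split of Tom- mesothelial cells went the other way for Tagln, with a ratio of 0.67 (0.42 to 0.91). It was at 225 CPM in 90 cells with and 141 CPM in 1701 cells without a tdTomato UMI. Acta2 had 0.15 (-0.024 to 0.31) there, Cnn1 1.27 (0.47 to 1.98) and Pdlim3 1.72 (1.35 to 2.06).

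Cells with at least 5 mural UMIs, 88 Tom+ and 38 Tom- cells of all depths, had more Acta2, with 1.44 (1.12 to 1.75) and 1.02 (0.58 to 1.44), and more Tagln, with 1.42 (1.15 to 1.68) and 2.11 (1.87 to 2.34). Myh11 was not alike in the libraries, with -0.15 (-0.47 to 0.15) and 1.08 (0.54 to 1.57). Of these 88 Tom+ and 38 Tom- cells, 46 and 5 carry a barcode shared between the libraries, and values without them are not given here.

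**Figure D5:**
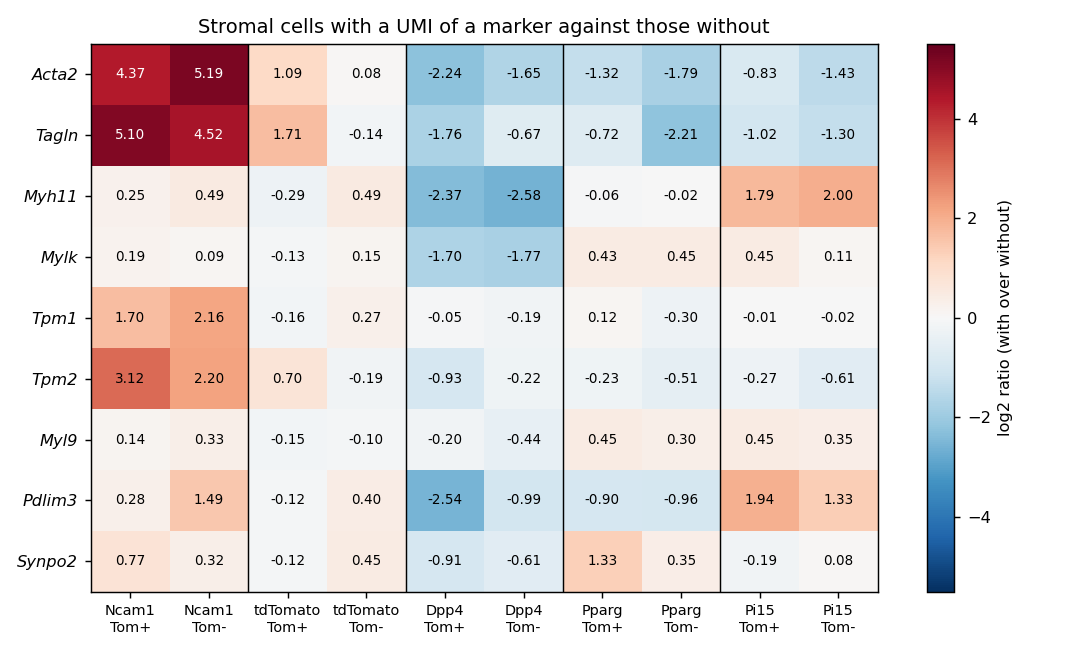
Log2 ratio of summed thinned UMIs in stromal cells with a UMI of the named marker over those without, for 9 of the 10 genes (rows) and 5 markers in each library (columns), red where higher and blue where lower in cells with the marker. Acta2, Tagln, Tpm1 and Tpm2 are red under Ncam1 in both libraries, Myh11 and Pdlim3 are red under Pi15 and blue under Dpp4, and the tdTomato column of the Tom+ library is red for Acta2, Tagln and Tpm2.

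Related genes were read from lists, whose counts in mesothelial over stromal cells stand beside 13.1% higher and 10.1% lower over all genes in the Tom+ library and 11.9% and 9.22% in the Tom- library. All 13 actin, myosin and regulator paralogs of nonmuscle cells were above 0 in mesothelial over stromal cells of both libraries, with medians of 0.65 and 0.60, and 4 and 1 of them passed 2-fold. The median over all genes was also above 0, at 0.11 and 0.14, and the share of all genes above 0 is not given here. The lowest paralog was at 0.20 and 0.096. Size factors would lower these ratios by 0.18 and 0.15, which puts the lowest Tom- paralog below 0. Myh10, a nonmuscle myosin heavy chain, had 2.26 (2.11 to 2.40) and 2.35 (2.26 to 2.45), so it was higher in mesothelial cells where the smooth muscle heavy chain Myh11 was lower. Of 15 other smooth muscle genes 8 and 9 passed the minimum, 3 and 3 were at least 2-fold higher and 1 and 2 lower. Smtnl2, a smoothelin-like protein, had 4.35 (3.79 to 4.94) and 4.24 (3.74 to 4.79), and Ppp1r14a, an inhibitor of myosin phosphatase, -4.12 (-6.0 to -2.76) and -3.64 (-4.02 to -3.28).

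Of 17 genes of LIM and focal adhesion proteins 5 and 3 were at least 2-fold higher in mesothelial cells and 1 and 1 lower. Csrp2, a LIM protein of smooth muscle, was at 32.1 and 64.5 CPM in Tom+ and Tom- stromal cells and at 1086 and 1229 CPM in mesothelial cells. Of 12 partners and targets of serum response factor that were counted 1 was higher and 2 were lower in each library. Of 14 matrix genes of activated fibroblasts 3 and 2 were higher and 6 and 5 lower, and Postn (periostin) had -5.17 (-5.55 to -4.82) and -3.66 (-3.79 to -3.54). Of 12 immediate early genes, which respond to tissue handling, 2 and 1 were higher and 3 and 4 lower.

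Between libraries 0.869% of all genes were at least 2-fold higher and 0.982% lower in stromal cells. There 0 of 13 nonmuscle paralogs, 0 of 8 smooth muscle genes, 0 of 12 serum response factor genes and 0 of 12 immediate early genes passed 2-fold in either direction. The median was -0.27 over the paralogs, -0.26 over the smooth muscle genes and -0.21 over the immediate early genes. Of 16 LIM and focal adhesion genes Csrp2 passed, with -1.01 (-1.09 to -0.92). Of 13 matrix genes Ltbp2 had -1.24 (-1.39 to -1.10), Col8a1 -1.09 (-1.25 to -0.92) and Postn 1.02 (0.99 to 1.05), and the others did not pass. In mesothelial cells no gene of these lists passed 2-fold between the libraries, beside 0.689% higher and 0.34% lower over all genes.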

How the data were processed

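Droplet libraries of CD31- CD45- Tom+ and Tom- cells were made with the 10x Genomics 3′ kit v3.1, and the authors processed the reads with Cell Ranger 3.0.2 (mm10). The deposited matrices hold UMI counts per gene and cell, not normalized, and no sample column was left unused. Cells were filtered by the thresholds of the study's methods (over 1000 and under 7000 genes, mitochondrial UMIs under 8%), and doublets were marked with Scrublet (scanpy 1.11.5) only as an alternative. Counts were summed per library and class and given as CPM (UMIs per 1000000 UMIs of the class). A gene was called at 2-fold and a mean of at least 5 CPM. Percentiles are among all genes with that mean. Shares and splits by a marker (not those by the mural list) used cells thinned to 7461 UMIs, leaving out 264 Tom+ and 628 Tom- stromal and 3 and 96 mesothelial shallower cells. Likeness is Pearson r of log(1 + UMIs per 10000). Python 3.11.15, numpy 2.4.6, pandas 2.3.3 and scipy 1.17.1 were used, and the calculations were tested on simulated data. The named genes are the 10 members, of each list the 3 genes with the largest ratios, tdTomato, and for each member the 3 genes outside the members with the highest r in both libraries; other cell type markers and the Ncam1 split are named outside this rule. Members and lists were chosen with earlier results of these data known. A further gene list is not reported here. Alternatives were other filters, class limits, scalings, thresholds and sets of cells.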

Additional observations from a re-analysis of the deposited data

Results flagged for a closer look

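The Tom+ over Tom- log2 ratio of Pdlim3 was 1.84 higher in stromal than in mesothelial cells, with a positive ratio in the former and a negative one in the latter. It stands out because the same comparison went in opposite directions in the 2 classes, beyond counting error in each. Synpo2 and Myh11 also had opposite signs in the 2 classes. Their mesothelial intervals hold both signs, with 0.23 (-0.064 to 0.51) for Synpo2 and -0.097 (-1.22 to 0.87) for Myh11. The difference for Pdlim3 was not tested, since each class holds 1 library per condition.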

How the results depend on the processing

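No paired analysis was possible because each condition is 1 library and no result comes from a test. Of 437 member log2 ratios under the alternatives, 420 kept their sign, and the 17 that changed it belong to Myl9, Tpm1, Tpm2 and mesothelial Myh11, none of them past 2-fold; 335 stayed within the counting interval of the reported value. Members at least 2-fold higher in Tom+ stromal cells numbered 0 as reported, 1 (Myh11) without the 1% of cells with most UMIs of the gene, and 2 (Myh11 and Pdlim3) with a log2 ratio of 0.5 as the threshold. Members at least 2-fold lower in Tom+ mesothelial cells numbered 3 as reported, 1 with cells weighted equally (Mylk at -0.98 and Pdlim3 at -0.96 no longer passed) and 1 without the top 1% of cells (Cnn1 fell under the minimum). Without Scrublet doublets Mylk was at -0.88 there. The cause of these changes was not tested, and the alternatives without the top 1%, without Ncam1 cells and without immune-marker cells were chosen after seeing the data. Depth limits the mesothelial values of Myh11, Cnn1, Mylk and Pdlim3 in the Tom+ library, and with 1 library per condition no interval covers the spread between mice.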

Other observations

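The few cells between the classes, with 5 to 9 mesothelial-marker UMIs, were left out of the comparisons. In these 11 Tom+ and 30 Tom- cells Acta2 was at 36.8 CPM (4.45 to 133, 2 UMIs) and 315 CPM (240.1 to 407, 59 UMIs), and Tpm1 at 588 CPM (402 to 830.4, 32 UMIs) and 353 CPM (273 to 449, 66 UMIs).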
